A study of Mus musculus with 6 samples.

Results

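The genes described here are the core of the Notch pathway as it is expressed in mouse colon organoids. They comprise the receptors Notch1, Notch2 and Notch3, the ligands Dll1, Dll4, Jag1 and Jag2, and the genes of nuclear proteins Hes1, Hes6 and Nrarp. They were taken by symbol from the table of normalized read counts, where each of the 10 symbols had 1 row among 25067 rows. Colonic organoids were derived from C57BL/6 mice aged 8 weeks, and RNA from 6 libraries was sequenced. The organoids of both groups carried floxed Prkci and Prkcz, the genes of the 2 atypical protein kinases C (aPKC), together with Villin-CreERT2. This recombinase is driven by the promoter of an intestinal epithelial gene and enters the nucleus once 4-hydroxytamoxifen (4-OHT) binds it. For 3 days from passage, the organoids of 3 libraries received 4-OHT and those of 3 others received ethanol, the vehicle. All were grown in Advanced DMEM/F12 to which EGF, R-spondin 1, Noggin, WNT3A and B27 had been added. The submitters call the vehicle group wild type, although by genotype it carries the same floxed alleles and recombinase. No culture given 4-OHT without floxed alleles or without the recombinase was used here, so loss of the kinases, Cre activity and 4-OHT itself cannot be told apart. The labels do not say whether libraries of a group came from separate mice or cultures, so the p-values measure the spread between these libraries, which may be technical.

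Notch receptors and their ligands both sit in the plasma membrane, so the signal passes between touching cells. A bound ligand is pulled into the sending cell, the receptor is cut by an ADAM protease and then by gamma-secretase, and the freed intracellular domain enters the nucleus, where it joins RBPJ and a Mastermind protein to switch on genes such as Hes1. In the intestinal crypt HES1 represses Atoh1, the factor that commits cells to the secretory lineages, and Notch signalling thereby keeps progenitors undifferentiated. Atypical PKC is known in dividing epithelial and neural cells for phosphorylating NUMB, an endocytic adaptor that lowers Notch at the membrane.

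The libraries held 15804709 to 26957612 reads on genes, and a Notch gene had between 34 and 2985 of them in a library. The targeted genes were lower after 4-OHT. Prkcz stood at 880, 904 and 954 normalized counts in the vehicle libraries and at 287, 265 and 290 in the 4-OHT libraries (log2 fold change -1.70, SE 0.08, limma adjusted p = 3.2e-12). Prkci went from 3603, 3526 and 3430 to 2869, 3105 and 3089 (log2 fold change -0.22, SE 0.05, limma adjusted p = 8.1e-04), so most of its reads remained. Counts over a whole gene include exons outside the deleted part. The 8 epithelial markers, of which 5 rose and 1 fell, summed to 14011 to 14374 CPM (a gene's share of the library's reads, scaled to 1000000 reads) with vehicle and to 17778 to 18935 with 4-OHT, and the 5 colon markers, of which 2 rose and 1 fell, to 468 to 507 and 632 to 719. In 4-OHT replicates 2 and 3, 7 small-intestinal and Paneth cell markers summed to 19.3 and 16.2 CPM, against 0.816 to 1.30 in the other 4 libraries. Most of these reads were Defa24 (145 and 176), Fabp6 (120 and 34), Defa21 (82 and 21) and Mptx2 (24 and 36). Gata4 went the other way, with 1 and 3 reads against 8 to 14 in the other 4, and Lct had 0 and 7 against 0 to 5. The 10 immune markers, with Mzb1 among those at 0 reads in every library, summed to 11.1 and 5.34 CPM in 4-OHT replicates 2 and 3 against 0.147 to 0.569 elsewhere. Most of these reads were Igha (135 and 40), Igkc (39 and 15) and Jchain (30 and 7), with Lyz2 at 6 and 25, while Ptprc had 0 to 4 in every library. The 6 fibroblast markers summed to 9.71 CPM in 4-OHT replicate 3 against 0.297 to 1.08 in the others. Most of these reads were Col3a1 (100), with Dcn at 24, Lum at 13 and Col1a2 at 11. Col1a1 (11) and Pdgfra (12) were near their reads in vehicle replicate 1 (11 and 11). The part of all these markers in the results was not tested. Log2 fold changes of Notch genes are therefore also given without 4-OHT replicates 2 and 3.

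After 4-OHT, Hes1 and Jag1 rose, and Notch1, Dll4, Jag2 and Hes6 fell. Thus 6 of the 10 genes (60%) passed the test at an adjusted p of 0.05, while 43.6% of the 13210 tested genes did. The same rule called 22.7% of tested genes higher and 21% lower, beside 2 and 4 of the 10. In 7 of the 10 genes (70%) the 3 values of one group lay entirely outside those of the other, which held for 52.1% of tested genes. The median log2 fold change of the 10 genes was -0.18, from -0.50 (Notch1) to 0.48 (Hes1), and that of all tested genes was -0.01, with the middle 50% between -0.22 and 0.20. Without 4-OHT replicates 2 and 3, the fit assumes that the lone 4-OHT library varies as the vehicle libraries do. The log2 fold changes were then -0.40 for Notch1, 0.30 for Jag1, -0.39 for Jag2 and 0.44 for Hes1. Those of Dll4 and Hes6 were -0.28 and -0.13. The median log2 fold change of the 10 genes was -0.11. In bulk RNA, fewer cells of a type and less RNA per cell cannot be told apart, so each change is one of the culture as a whole.

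**Figure D1:**
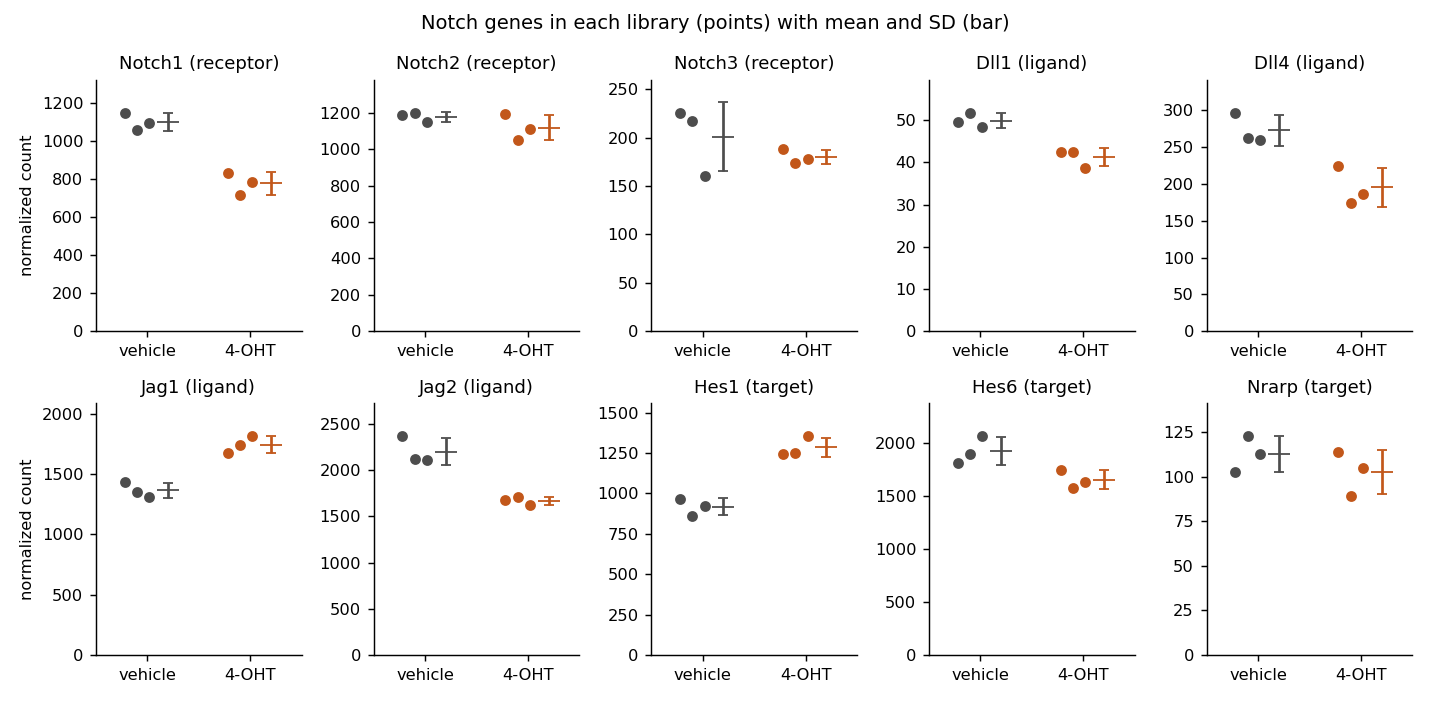
Normalized count (vertical axis, from 0) of the 10 Notch genes in each library, with vehicle in grey and 4-OHT in orange. Points are libraries, and the bar beside them is the mean with its SD (n = 3). The 3 points of one group lie clear of the other in Notch1, Dll1, Dll4, Jag1, Jag2, Hes1 and Hes6, and the groups overlap in Notch2, Notch3 and Nrarp.

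Among the receptors, Notch1, which with Notch2 is the receptor known to act in crypt progenitors, fell. It was measured at 1152, 1059 and 1099 normalized counts in the vehicle libraries and at 835, 716 and 788 in the 4-OHT libraries. Every 4-OHT library was below every vehicle library. The mean dropped from 1104 ± 46.7 to 780 ± 59.7 (SD, n = 3), by 29.4%, a log2 fold change of -0.50 (SE 0.07, 95% interval -0.64 to -0.36, limma adjusted p = 4.4e-06). The change was larger in size than that of 82.1% of tested genes. Each 4-OHT library on its own lay below the vehicle mean, by -0.40, -0.62 and -0.48 on the log2 scale, and 4-OHT replicate 1, the library low in small-intestinal markers, gave the smallest of the 3.

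Notch2 showed no such fall. It read 1187, 1202 and 1149 with vehicle and 1192, 1052 and 1111 with 4-OHT, and the highest 4-OHT value lay inside the vehicle range. The log2 fold change was -0.08 (SE 0.06, 95% interval -0.20 to 0.05, limma adjusted p = 0.31), so a fall as large as the one fitted for Notch1 lies outside its interval. Notch3, better known from vascular smooth muscle, read 226, 217 and 160 with vehicle and 188, 174 and 178 with 4-OHT. Its vehicle replicate 3 lay below all 4-OHT libraries, and the log2 fold change of -0.14 (SE 0.13, 95% interval -0.42 to 0.13, limma adjusted p = 0.41) did not pass. Smooth muscle and pericyte markers summed to 2.28 to 2.65 CPM with vehicle and to 2.39, 4.59 and 7.56 with 4-OHT. These markers did not move together. Pdgfrb held 51, 62 and 26 of their 54, 70 and 36 vehicle reads and had 30, 26 and 15 reads with 4-OHT. Acta2, Myh11, Cnn1, Des and Rgs5 had their highest reads in 4-OHT replicates 2 and 3 (Acta2 16 and 27), and Tagln had 2 to 6 in every library. The part of these markers in the Notch3 value was not tested.

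The balance between Notch1 and Notch2 moved with Notch1. A ratio taken within a library does not depend on the scaling between libraries, and these ratios were chosen after the values were seen and are given without a test. Notch1 had 0.971, 0.881 and 0.957 reads for each Notch2 read with vehicle, and 0.700, 0.681 and 0.709 with 4-OHT. The groups did not overlap, with means of 0.936 ± 0.0482 and 0.697 ± 0.0144 (SD, n = 3).

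The ligands moved in different directions. Jag1, a Jagged ligand, rose from 1436, 1349 and 1309 normalized counts to 1674, 1737 and 1813. All 4-OHT libraries lay above all vehicle libraries, and the mean went from 1364 ± 65.0 to 1741 ± 69.9 (SD, n = 3), 27.6% higher (log2 fold change 0.35, SE 0.06, limma adjusted p = 3.3e-05). Jag2, the other Jagged ligand, fell from 2369, 2117 and 2111 to 1674, 1712 and 1622, again with no overlap. Its mean dropped from 2199 ± 147 to 1669 ± 45.3 (SD, n = 3), by 24.1% (log2 fold change -0.40, SE 0.05, limma adjusted p = 7.4e-06).

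The Jagged pair came closer in read number. With vehicle there were 0.606, 0.637 and 0.620 Jag1 reads for each Jag2 read, and with 4-OHT there were 1.00, 1.01 and 1.12, a 1.68-fold rise of the mean ratio. Jag1 thus went from well under Jag2 in read number to equal or above it in each 4-OHT library.

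Both Delta-like ligands were lower after 4-OHT, but only Dll4 passed the test. Dll4, known for its part in vessel sprouting and together with Dll1 as a ligand of crypt progenitors, stood at 297, 262 and 259 with vehicle and at 224, 174 and 187 with 4-OHT. Its groups did not overlap. The log2 fold change was -0.49 (SE 0.12, 95% interval -0.73 to -0.25, limma adjusted p = 0.0019). Without 4-OHT replicates 2 and 3 it was -0.28, and the gene did not pass with a lone 4-OHT library left. With only 4-OHT replicate 2 left out it was -0.41, and with only 4-OHT replicate 3 left out -0.46, and the gene passed in both cases. The endothelial list summed to 2.15 to 2.97 CPM with vehicle and to 1.76 to 2.78 with 4-OHT, most of it Vwf. The other 5 endothelial markers in the table were low, with 0 to 5 reads in a library for Pecam1, Cdh5, Kdr and Cldn5 and 0 to 8 for Tek, and their part in the Dll4 value was not tested. Dll4 shares 214 annotated exon bases with Gm14207, a noncoding gene on the opposite strand with a mean of 60.4 normalized counts, and whether counting used strand is not given in the sources used here.

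Dll1, the Delta ligand of secretory progenitors, was the least abundant of the 10 genes. It had 53, 73 and 40 reads with vehicle and 41, 41 and 34 with 4-OHT, or 49.4, 51.8 and 48.4 against 42.4, 42.5 and 38.7 normalized counts. The 3 vehicle values all exceeded the 3 4-OHT values, yet the log2 fold change of -0.27 (SE 0.21, 95% interval -0.71 to 0.17) had a limma adjusted p of 0.32. Pooled over libraries, the ratio of 4-OHT to vehicle reads, scaled by the summed size factors of each group, was 0.822, with an exact binomial 95% interval of 0.643 to 1.05 that covers counting error alone. The spread of Dll1 between libraries was 0.259 (vehicle) and 0.319 (4-OHT) times that given by counting alone. The limma SE also draws on other genes of a similar level. Whether more reads would have detected a difference of this size was not tested.

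**Figure D2:**
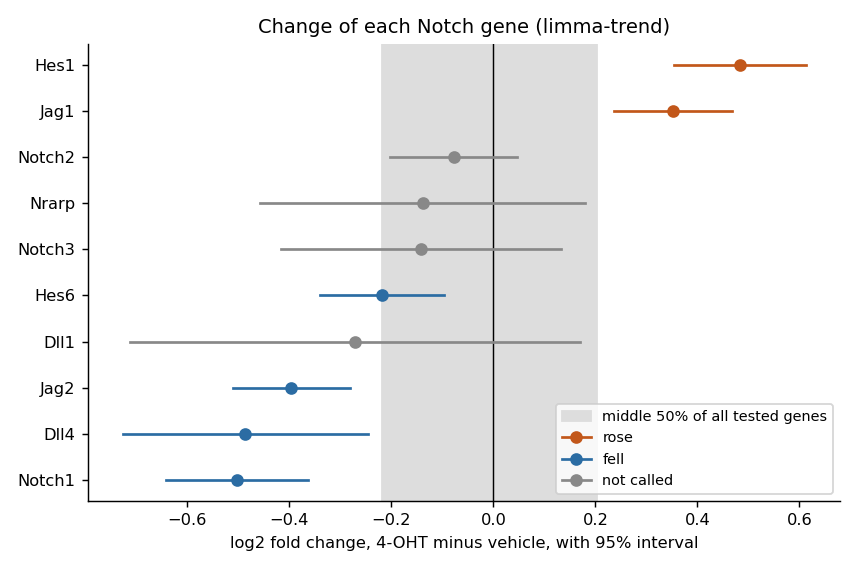
Log2 fold change, 4-OHT minus vehicle (horizontal axis), of each Notch gene with its 95% interval from limma, coloured by whether the gene rose, fell or was not called. The grey band is the middle 50% of all tested genes (-0.22 to 0.20), and the points of Hes1 and Jag1 lie to its right and those of Dll1, Jag2, Dll4 and Notch1 to its left, Hes6 being at its edge.

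The Hes genes moved apart as well. Hes1 and Hes6 are basic helix-loop-helix repressors, and HES6 is known to oppose HES1 and to favour differentiation in neural progenitors. Proteins of the family end in the tetrapeptide Trp-Arg-Pro-Trp, which binds Groucho corepressors. The end of each coding sequence is shown because it is the feature that Hes1 and Hes6 share. It was read from the GENCODE M21 transcripts on GRCm38, 36 bases with the stop codon, the capitals marking the 4 codons of the tetrapeptide. That of Hes1 lies at chr16:30067393-30067428 on the plus strand and that of Hes6 at chr1:91412058-91412093 on the minus strand, each in the last coding exon. Of the 282 codons of Hes1, 2 follow the tetrapeptide, while none of the 224 codons of Hes6 does.
Hes1: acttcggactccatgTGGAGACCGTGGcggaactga
Hes6: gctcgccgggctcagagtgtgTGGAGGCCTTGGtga

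Hes1 rose. It stood at 967, 863 and 924 normalized counts with vehicle and at 1246, 1252 and 1353 with 4-OHT, and the lowest 4-OHT library was well above the highest vehicle library. The mean went from 918 ± 52.7 to 1284 ± 60.4 (SD, n = 3), 39.9% higher (log2 fold change 0.48, SE 0.06, 95% interval 0.35 to 0.61, limma adjusted p = 2.8e-06). The 3 4-OHT libraries lay 0.44, 0.45 and 0.56 above the vehicle mean on the log2 scale, so 4-OHT replicate 1 gave nearly the same rise as the next. The change was larger in size than that of 80.9% of tested genes.

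Hes6 fell by a smaller margin. Its values were 1808, 1894 and 2060 with vehicle and 1747, 1573 and 1628 with 4-OHT. The groups were apart, but vehicle replicate 1 and 4-OHT replicate 1 lay close together. The mean dropped by 14.1%, from 1921 ± 128 to 1649 ± 88.8 (SD, n = 3), with a log2 fold change of -0.22 (SE 0.06, 95% interval -0.34 to -0.10, limma adjusted p = 0.0046). Without 4-OHT replicates 2 and 3 the log2 fold change was -0.13 and no longer passed (limma adjusted p = 0.20). There were 0.535, 0.455 and 0.448 Hes1 reads for each Hes6 read with vehicle and 0.713, 0.796 and 0.831 with 4-OHT, a 1.63-fold rise of the mean ratio.

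Nrarp, a target whose ankyrin-repeat protein feeds back to limit Notch signalling, was not called. It read 103, 123 and 113 with vehicle and 114, 89.1 and 105 with 4-OHT, with overlapping groups (log2 fold change -0.14, SE 0.15, 95% interval -0.46 to 0.18, limma adjusted p = 0.50). With 4-OHT replicate 1 alone the difference was 0.02, so the sign of its difference depended on the other 2 libraries. The point estimates of the 2 targets Hes1 and Nrarp therefore had opposite signs in the full comparison, and a rise as large as the one fitted for Hes1 lies outside the Nrarp interval. Nrarp shares 1487 exon bases with the antisense gene Gm38287. Exons of opposite-strand genes also overlap those of Notch1 by up to 964 bases, Dll1 by up to 445 and Notch3 by up to 333. Notch2 shares 202 bases with Gm42820 on the same strand.

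**Figure D3:**
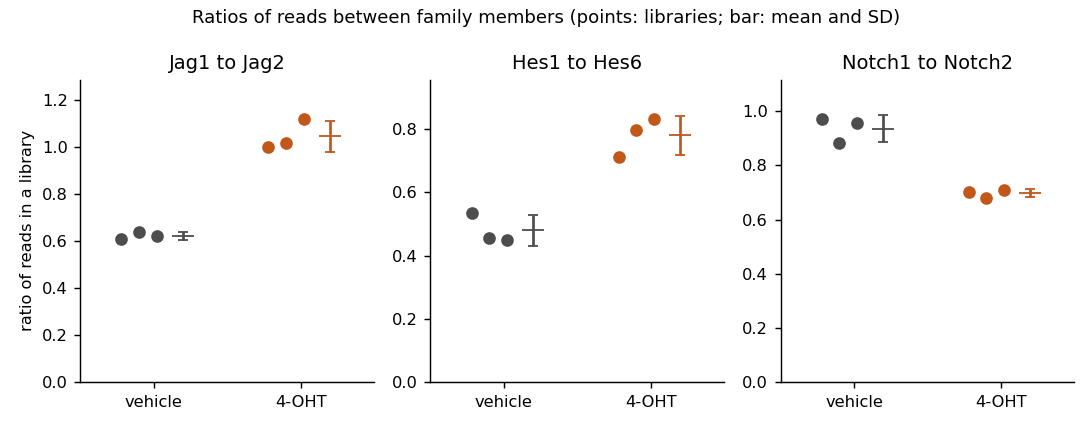
Ratio of reads of 2 family members within each library (vertical axis, from 0), for Jag1 to Jag2, Hes1 to Hes6 and Notch1 to Notch2, with vehicle in grey and 4-OHT in orange. Points are libraries and bars the mean with its SD (n = 3). The Jagged ratio rises from 0.621 to 1.04 and the Hes ratio from 0.480 to 0.780, whereas the receptor ratio is 0.936 with vehicle and 0.697 with 4-OHT, with no overlap of groups in the 3 panels.

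The target Hes1 and the receptor Notch1 thus changed in opposite directions within the same libraries. There were 0.840, 0.814 and 0.840 Hes1 reads for each Notch1 read with vehicle, and 1.49, 1.75 and 1.72 with 4-OHT. Jag1 reads for each Notch1 read likewise went from a mean of 1.24 ± 0.0422 to 2.24 ± 0.216 (SD, n = 3). For the Delta-like pair the groups overlapped, with 5.47 ± 0.484 Dll4 reads for each Dll1 read with vehicle and 4.74 ± 0.602 with 4-OHT.

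To compare levels between genes, normalized counts were divided by the length of the annotated exons. This treats reads as spread over the transcript, and the kind of library is not given in the sources used here. On this scale of normalized counts per kb, Hes6 was the most abundant of the 10 genes with vehicle at 1439 ± 96.1 (SD, n = 3), followed by Hes1 at 625 ± 35.9, Jag2 at 431 ± 28.8 and Jag1 at 243 ± 11.6. The receptors stood lower, with Notch1 at 116 ± 4.92 and Notch2 at 112 ± 2.59, and these were the only neighbours in the order whose libraries overlapped. Dll4 followed at 72.7 ± 5.60, then Nrarp at 43.6 ± 3.89, Notch3 at 25.1 ± 4.47 and Dll1 at 13.9 ± 0.481.

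With 4-OHT the order changed at one place. Notch2 at 107 ± 6.70 normalized counts per kb stood above Notch1 at 82.2 ± 6.29 (SD, n = 3), with no overlap of libraries. Jag2 at 327 ± 8.87 and Jag1 at 310 ± 12.5 came to overlap. The span from Hes6 to Hes1 narrowed, with levels of 1236 ± 66.5 and 875 ± 41.1, and Dll1 stayed the lowest at 11.5 ± 0.601.

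**Figure D4:**
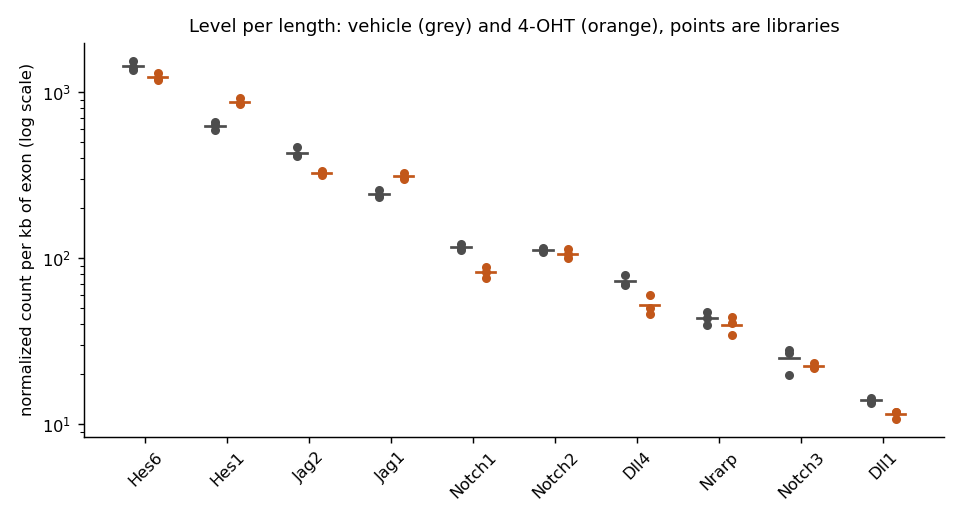
Normalized count per kb of annotated exon (vertical log axis) of the 10 Notch genes, in order of the vehicle mean, with vehicle in grey and 4-OHT in orange. Points are libraries and horizontal bars are means (n = 3). Levels run from 1439 for Hes6 to 13.9 for Dll1 with vehicle, and Notch1 and Notch2 share a level with vehicle but not with 4-OHT.

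Promoter windows were taken from RefSeq on GRCm38.p6, as the 250 bases before each annotated start. The table of windows used here held 9 of the 10 genes, in 11 windows. Hes1 was not analysed here. The RBPJ core TGGGAA, on either strand, occurred in 0 of the 9 genes, while 24.1% of the 27025 genes in the table had a window of the same length that held it. The N box CACNAG, a sequence that Hes repressors can bind, was found on either strand in 6 of the 9 genes and in 40.1% of all genes. It was present in Notch1, Dll4 and Hes6, which fell, and in Notch2, Notch3 and Nrarp, which were not called. It was absent from Jag2, which fell, Jag1, which rose, and Dll1, which was not called. Nrarp was the one gene of the 9 with an E box CACGTG, which 6.86% of all genes held in a window. The 3 motifs do not overlap one another where they were found below. A match is a run of letters and shows no binding, and a missing match speaks for these 250 bases alone.

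The windows of Dll4 and Hes6, which fell, and of Nrarp, which was not called, are shown with every CACNAG match in capitals on the strand of the gene. That of Dll4 is chr2:119325534-119325783 on the plus strand, where the match ends 70 bases before the start and the window overlaps an exon of the noncoding Gm14207. That of Hes6 is chr1:91413223-91413472 on the minus strand, with a match ending 232 bases before the start. A second Hes6 start had no match. That of Nrarp is chr2:25180508-25180757 on the plus strand, with matches ending 174 and 74 bases before the start.
Dll4: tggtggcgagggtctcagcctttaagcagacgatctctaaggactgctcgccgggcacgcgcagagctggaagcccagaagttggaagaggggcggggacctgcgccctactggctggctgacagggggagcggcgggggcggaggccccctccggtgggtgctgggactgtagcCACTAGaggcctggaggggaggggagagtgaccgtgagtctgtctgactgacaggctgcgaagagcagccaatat
Hes6: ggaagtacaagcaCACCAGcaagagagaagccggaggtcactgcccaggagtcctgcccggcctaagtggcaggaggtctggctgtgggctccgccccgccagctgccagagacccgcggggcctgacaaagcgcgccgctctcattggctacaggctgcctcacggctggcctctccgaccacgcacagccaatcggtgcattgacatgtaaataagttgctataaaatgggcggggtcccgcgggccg
Nrarp: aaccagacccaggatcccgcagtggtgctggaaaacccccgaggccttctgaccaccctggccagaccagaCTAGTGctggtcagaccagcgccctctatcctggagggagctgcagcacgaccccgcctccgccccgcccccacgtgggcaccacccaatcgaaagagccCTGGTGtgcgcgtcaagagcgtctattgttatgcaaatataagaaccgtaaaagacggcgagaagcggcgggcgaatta

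Beyond the 10 genes, 9 lists of other pathway genes held 85 rows, of which 70 were tested. Of these, 18 rose and 14 fell, 45.7% in all beside 43.6% of all tested genes, and their median log2 fold change was 0.07. By list, the share called was 40% for glycosylation enzymes and for proteases and 35.7% for endocytosis and turnover. It was 62.5% for the nuclear complex, 16.7% for Groucho genes, 66.7% for further targets and 50% for secretory factors. The remaining receptor Notch4, an endothelial receptor in most tissues, rose from 256, 284 and 277 to 326, 351 and 415 normalized counts (log2 fold change 0.41, SE 0.10, limma adjusted p = 0.0025). All 4-OHT libraries were above all vehicle libraries, the opposite of Notch1. Without 4-OHT replicates 2 and 3 the log2 fold change was 0.26 and did not pass (limma adjusted p = 0.15), which left 0 calls in its list. The other 3 genes of the list, Dll3, Dlk1 and Dlk2, fell below a mean of 10 normalized counts and were not tested, Dll3 reading 3.73, 1.42 and 2.42 with vehicle and 0, 0 and 1.14 with 4-OHT.

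Among 10 tested glycosylation enzymes of the receptor, 0 rose and 4 fell, with a list median of -0.16. Pofut1, which adds O-fucose to the extracellular repeats, went from a mean of 774 ± 28.5 to 618 ± 33.9 (SD, n = 3; log2 fold change -0.32, SE 0.07, limma adjusted p = 6.9e-04). Xxylt1, a xylosyltransferase, fell by 0.34 on the log2 scale (limma adjusted p = 0.0033) and Poglut2, an O-glucosyltransferase, by 0.30 (limma adjusted p = 0.034). The fourth was Gxylt1, a further xylosyltransferase, at -0.15 (limma adjusted p = 0.039). Lfng, the Fringe enzyme that shifts receptor preference towards Delta ligands, read 541, 605 and 593 with vehicle and 739, 620 and 607 with 4-OHT and was not called (log2 fold change 0.17, limma adjusted p = 0.096). Its highest value is that of 4-OHT replicate 1, and with this library alone the log2 fold change was 0.35 and passed (limma adjusted p = 0.012). The count of calls in this list was 2 without vehicle replicate 2, without vehicle replicate 3 or without 4-OHT replicate 2. Poglut2 lost its call in these 3 cases (-0.26, -0.29 and -0.22) and without 4-OHT replicate 1 (-0.31). Gxylt1 lost its call without any 1 library other than 4-OHT replicate 1 (-0.15 to -0.13). Without 4-OHT replicates 2 and 3, 1 gene rose (Lfng) and 1 fell (Pofut1), the list median was -0.03, and Xxylt1 at -0.23 no longer passed (limma adjusted p = 0.13).

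Of the 10 proteases and their partners, 3 rose and 1 fell, with a median of 0.19. Furin, the convertase that cuts the receptor precursor, rose from 3472 ± 117 to 4642 ± 123 (SD, n = 3; log2 fold change 0.42, SE 0.05, limma adjusted p = 3.3e-07). Psenen and Aph1a, subunits of gamma-secretase, rose by 0.24 and 0.13 on the log2 scale (limma adjusted p = 0.0042 and 0.044). Adam17 fell by 0.15 (limma adjusted p = 0.033). Adam10, the main protease of the ligand-induced cut, gave 0.12 (limma adjusted p = 0.057) and was not called, though it passed without 4-OHT replicate 1 (0.15). Calls in this list numbered 2 without vehicle replicate 2 or without vehicle replicate 3. When 4-OHT replicates 2 and 3 were left out, Psenen (0.16, limma adjusted p = 0.14), Aph1a (0.04, limma adjusted p = 0.67) and Adam17 (-0.16, limma adjusted p = 0.13) did not pass, 2 genes of the list rose and 0 fell, and its median was 0.06. The call of Aph1a was also lost without any 1 library other than 4-OHT replicate 1 (0.10 to 0.14). That of Adam17 was lost without vehicle replicate 2 (-0.13) or 3 (-0.14) and without 4-OHT replicate 1 (-0.15) or 2 (-0.14).

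Of 14 tested genes of endocytosis and turnover, 4 rose and 1 fell, with a median of 0.10. The Deltex ligase Dtx4 rose from 583 ± 37.9 to 913 ± 114 (SD, n = 3; log2 fold change 0.64, SE 0.08, limma adjusted p = 3.1e-06). Neurl3, of the Neuralized family of ligases, rose from 2754 ± 46.7 to 3961 ± 87.6 (log2 fold change 0.52, SE 0.04, limma adjusted p = 1.5e-08). Dtx2 rose by 0.30 (limma adjusted p = 0.025). The fourth gene to rise was Fbxw7, the ligase subunit that marks the Notch intracellular domain for degradation, at 0.20 (limma adjusted p = 0.030). Mib2, a ligase that drives ligand endocytosis, fell by 0.21 (limma adjusted p = 0.0090), and its relative Mib1 stood at -0.05 (limma adjusted p = 0.44). Numb, the aPKC substrate, read 873, 846 and 908 with vehicle and 947, 911 and 974 with 4-OHT. These groups were apart, yet the log2 fold change of 0.11 (SE 0.06) did not pass (limma adjusted p = 0.16). Calls in this list numbered 3 without vehicle replicate 1, without vehicle replicate 2 or without 4-OHT replicate 1. Dtx2 lost its call without vehicle replicate 2 (0.24) and without 4-OHT replicate 1 (0.20), and Mib2 without vehicle replicate 1 (-0.18). Fbxw7 lost it without vehicle replicate 1 (0.18) or 2 (0.21) and without 4-OHT replicate 1 (0.18) or 2 (0.17), and without 4-OHT replicates 2 and 3 together (0.25).

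**Figure D5:**
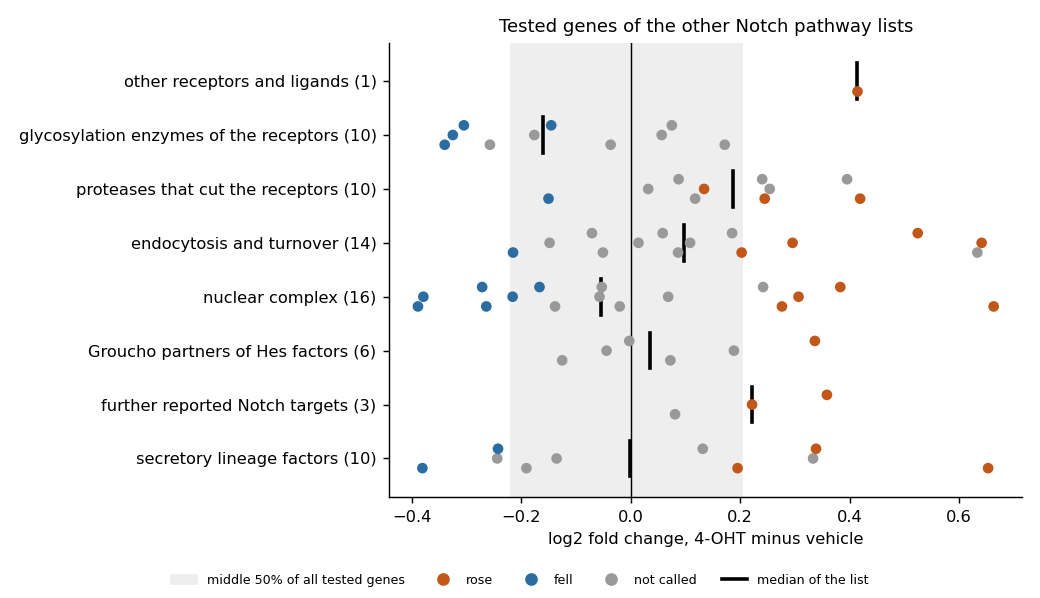
Log2 fold change, 4-OHT minus vehicle (horizontal axis), of each tested gene in 8 lists of other Notch pathway genes, with the number tested in brackets. Points are genes coloured by call, black bars are list medians and the grey band is the middle 50% of all tested genes. The median is -0.16 for the glycosylation enzymes and 0.19 for the proteases, and the nuclear complex has 4 genes that rose and 6 that fell.

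In the nuclear complex 10 of 16 genes (62.5%) passed, beside 43.6% of all tested genes. Of the 10, 4 went upward and 6 downward, and the list median was -0.05. Rbpj, the DNA-binding partner of all Notch receptors, fell from 995, 1015 and 861 to 808, 728 and 841 normalized counts (log2 fold change -0.27, SE 0.07, limma adjusted p = 0.0055), with its highest 4-OHT value just under its lowest vehicle value. The Mastermind coactivator Maml2 rose from 122 ± 6.71 to 195 ± 28.7 (SD, n = 3; log2 fold change 0.66, SE 0.13, limma adjusted p = 4.8e-04). Besides it rose the acetyltransferase Kat2b (0.38) and L3mbtl3 (0.31), a corepressor that binds RBPJ, and the deacetylase Hdac1 at 0.28. The largest falls were those of Spen, a corepressor of RBPJ, at -0.39 and the coactivator Ep300 at -0.38. Coactivators and corepressors thus stood on both sides. Without 4-OHT replicates 2 and 3 there were 6 calls, 4 upward and 2 downward, and Rbpj, at -0.24, was not among them (limma adjusted p = 0.067).

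None of the 7 other Hes and Hey genes reached the tested level, the highest mean being 4.34 normalized counts. Hey1 read 0, 0 and 0 with vehicle and 1.03, 4.15 and 0 with 4-OHT, and Hes5 read 0.933, 2.13 and 2.42 and then 4.13, 1.04 and 0. A floor of 3 reads per library equals 2.13 to 3.63 normalized counts here, so these values lie near it. The highest values of the list in any library were 7.23 for Hes2 and 6.53 for Hes7. Hes1 and Hes6 were the only Hes or Hey genes listed here whose level allowed a test. Of 6 tested Groucho genes, 5 were not called and 1 passed, Tle5, a short member that lacks the WD repeats of the others. It went from 7315 ± 227 to 9259 ± 835 (SD, n = 3; log2 fold change 0.34, SE 0.05, limma adjusted p = 4.1e-05), and the list median was 0.04. Without 4-OHT replicate 1 there were 2 calls in this list.

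Among 3 tested genes of the list of further targets, 2 rose. Sox9 rose from 3056 ± 91.4 to 3917 ± 68.7 (SD, n = 3; log2 fold change 0.36, SE 0.05, limma adjusted p = 2.3e-06) and Ccnd1 by 0.22 (limma adjusted p = 0.0026), while Myc gave 0.08 (limma adjusted p = 0.15). All 3 are also targets of Wnt signalling. Of 10 tested factors of the secretory lineages, 3 rose and 2 fell, with a median of 0.00. Atoh1, which HES1 represses, read 172, 165 and 180 with vehicle and 156, 130 and 151 with 4-OHT. All 4-OHT values lay under all vehicle values, but the log2 fold change of -0.24 (SE 0.13) did not pass (limma adjusted p = 0.125). Sox4 rose from 7920 ± 321 to 12459 ± 661 (SD, n = 3; log2 fold change 0.65, SE 0.05, limma adjusted p = 1.7e-09), and the goblet cell factor Spdef rose by 0.34 (limma adjusted p = 0.012) and Foxa3 by 0.20 (limma adjusted p = 0.0086). Xbp1, a factor of secretory protein folding, fell by 0.24 (limma adjusted p = 0.0011), as did Creb3l1 by 0.38 (limma adjusted p = 0.013), although the Creb3l1 groups overlapped. With 4-OHT replicates 2 and 3 left out, Spdef stood at 0.19 and did not pass (limma adjusted p = 0.36), and the list median was 0.14. Calls in this list numbered 3 without 4-OHT replicate 2, those of Spdef (0.29) and Creb3l1 (-0.27) being lost, and Creb3l1 was also lost without vehicle replicate 2 (-0.32).

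For 3 of the genes, 1 for each role, the tested genes with the most similar pattern over the 6 libraries were found, as the root-mean-square difference of log2 values centred on each gene's mean. Nearest to Notch1 were Sorl1, a sorting receptor, at 0.018, Pds5b, a cohesin regulator, at 0.0214 and Ugt1a7c, a glucuronosyltransferase, at 0.0284. Nearest to Dll1 were the demethylase Kdm4b (0.0175), the endosomal Wdr91 (0.0199) and the methyltransferase Ezh2 (0.0221). Hes1 was nearest to Efnb2, the ligand ephrin-B2, at 0.0346, then to Cblc, a ubiquitin ligase, and Slc35e3, a transporter family member, at 0.0384 and 0.0412. With 13210 genes and 6 libraries, such nearness is a description of shape.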

How the data were processed

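RNA of 6 colon organoid libraries was compared, 3 with 4-OHT and 3 with vehicle, grouped by the labels. The signal deposited by the authors is a normalized count: reads per gene divided by 1 size factor per library, not corrected for length. The submitters' processing notes name STAR, DESeq2 and GRCm39. The counting tool and its strand setting are not given in the sources used here. All values (100%) were whole multiples of 1 read within 0.1 reads. The recovered reads were 15804709 to 26957612 per library, and repeated libraries of a group differed by 3.49 to 6.44 times the counting variance, so no library was a copy of another.

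The log2 of the normalized count plus 1 was compared with limma-trend (limma 3.58.1, R 4.3.3) over the 13210 rows with a mean of at least 10, with Benjamini-Hochberg adjustment over all of them. The fit was checked on simulated data. Fold changes are on the log2(value + 1) scale and understate those of low genes. The limma intervals and p-values rest on the spread between libraries, which the fit pulls towards that typical of tested genes at a similar level. The exact interval of the pooled Dll1 reads and the floor of 3 reads cover counting error only. Exon lengths, coding ends and overlaps came from GENCODE M21 on GRCm38, and promoter windows from RefSeq on GRCm38.p6. No coordinate was converted. The 10 genes and all lists were chosen with earlier results of these data known. Beyond the 10 genes and the aPKC genes, those named were 10 set by name (Notch4, Dll3, Lfng, Adam10, Numb, Mib1, Rbpj, Hey1, Hes5, Atoh1), up to 3 rises and 3 falls per list, and 3 nearest profiles each for Notch1, Dll1 and Hes1. Other genes were named after their values were seen. A gene set by name and a marker are not reported here, and both stay in the counts and sums of their lists. Tried in turn, 16 in all, were edgeR 4.0.16 and DESeq2 1.42.0 fitted to recovered reads, omission of single libraries or of 4-OHT replicates 2 and 3, a replicate block, quantile and TMM scaling, pseudocounts of 0.1 or 10, and a minimum mean of 50 or none.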

Additional observations from a re-analysis of the deposited data

How the results depend on the processing

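Over 16 alternatives the 10 Notch genes gave 159 values, of which 155 kept their direction and their side of the threshold. Dll1 had no value at a mean of at least 50. With 4-OHT replicates 2 and 3 left out, Dll4 (-0.28) and Hes6 (-0.13) no longer passed, and Notch2 (0.016) and Nrarp (0.016), not called in either, changed sign. Notch1 ranged from -0.55 to -0.40, Jag1 from 0.30 to 0.39, Jag2 from -0.44 to -0.34 and Hes1 from 0.44 to 0.52, and each passed under all 16. With 1 library left out at a time, 6 of the 10 passed each time, and 4946 to 5636 of all genes. edgeR called 5780 genes and DESeq2 5208, with 6 of the 10 in each. The 37 other named genes gave 592 values, of which 538 stayed, 52 lost the threshold and 2 gained it. Calls in the lists moved by more than 1.5 times as follows: without 4-OHT replicates 2 and 3 to 0 for other receptors and ligands, 2 for glycosylation enzymes, 2 for proteases and 6 for the nuclear complex, to 2 for glycosylation enzymes by DESeq2, to 2 for proteases without a filter, and to 1 for further targets with quantile normalization. Leaving out 1 library gave 2 to 3 calls for glycosylation enzymes, 2 to 4 for proteases, 3 to 5 for endocytosis and turnover, 8 to 10 for the nuclear complex, 1 to 2 for Groucho genes and 3 to 5 for secretory factors. The cause of these moves was not tested, and the fits that leave out libraries also hold fewer of them. Whether the same replicate numbers in both groups pair the libraries is not said in the labels. Correlations of same-numbered deviations were -0.00745, 0.0303 and -0.0202, and 2 of 6 libraries correlated best with their own number. With 3 libraries per group, these correlations cannot decide whether the libraries are paired. A fit with the replicate block called 6 of the 10 genes and 2 proteases rather than 4. Of the 10 genes Dll1 had the fewest reads, 34 to 73 per library.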
